A study of Mus musculus with 6 samples.

Results

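The genes described here are 32 genes of cholesterol synthesis and its regulation, out of 31950 genes with a value in each of 6 mouse livers. They were chosen by name: 8 genes of the mevalonate pathway, 11 enzymes that turn farnesyl diphosphate into sterols, 4 genes of SREBP2 control, 7 genes of uptake and intracellular transport, and 2 genes of esterification. All 32 names were found, each once. Of the 32 genes, 31 had a mean of at least 0.5 FPKM over the 6 livers and were tested, and *Npc1l1* was not.

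RNA from whole livers of 3 WT and 3 β-cateninΔ(ex3)/+ mice was sequenced, 1 library per liver. By the sample labels all 6 mice were C57BL/6 and 8 weeks old. A β-cateninΔ(ex3)/+ liver carries 1 *Ctnnb1* allele without exon 3, the exon that encodes the residues through which β-catenin is marked for degradation. By the study's methods, livers of this name came from β-catenin lox(ex3)/+ mice in which a Cre recombinase driven by the albumin promoter was switched on with tamoxifen, so that the deletion is aimed at hepatocytes while the other liver cells keep both alleles. The methods of the RNA-seq do not repeat this, and whether the WT mice carried Cre or were given tamoxifen is not given in the sources used here; nor is their sex. Levels are given in FPKM, which scale the fragments counted for a gene by the length of its transcripts and by all fragments mapped in that liver. A liver's depth, estimated from the steps between low values, was 49.0 to 49.5 M reads in WT and 33.9 to 39.1 M reads in β-cateninΔ(ex3)/+ livers.

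Cholesterol is built from acetyl-CoA in the cytosol and the endoplasmic reticulum. Acetyl-CoA units are joined and reduced to mevalonate, mevalonate is turned into isoprenoid diphosphates, a pair of farnesyl diphosphates is condensed to squalene, and squalene is closed to lanosterol and trimmed to cholesterol. The transcription factor SREBP2 drives most genes of this route: SCAP escorts it from the endoplasmic reticulum to the Golgi for cleavage when sterols are low, and INSIG proteins hold SCAP back when sterols are high. Liver is a main site of this synthesis, and it also takes up, esterifies and exports cholesterol.

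The libraries of the 2 groups differed in more than the labels say, and these differences fall along the group line. All 6 tested genes of a 7-gene young liver list were lower in β-cateninΔ(ex3)/+ livers; the list summed to 3816 to 3884 FPKM in WT and 3.98 to 4.39 FPKM in β-cateninΔ(ex3)/+ livers, with *Afp* at 601 to 612 against 2.38 to 2.81 FPKM and *Igf2* listed at 0 in each β-cateninΔ(ex3)/+ liver. All 7 genes of an adult liver list were higher, with sums of 91.7 to 95.1 FPKM in WT and 1710 to 1751 FPKM in β-cateninΔ(ex3)/+ livers; *Mup20* and *Obp2a* were listed at 0 in each WT liver. *Xist* was at 20.3 to 22.2 FPKM in WT livers and at most 0.0146 FPKM in β-cateninΔ(ex3)/+ livers, while the Y-linked *Eif2s3y* was at most 0.0169 FPKM in WT and 9.2 to 9.94 FPKM in β-cateninΔ(ex3)/+ livers. For every result below, genotype, sex and the stage that these markers follow cannot be told apart, and since they separate all WT from all β-cateninΔ(ex3)/+ libraries, no value without them could be had.

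Markers of other liver cells also moved with the group. Counts of genes higher or lower in this paragraph are by adjusted p. They are to be read against 37.4% of all genes tested that were higher and 19.6% that were lower. Summed over each list, Kupffer cell genes stood at 351 to 374 FPKM in WT and 818 to 830 FPKM in β-cateninΔ(ex3)/+ livers, with 9 of 10 higher and 1 lower by adjusted p. Stellate cell genes (130 to 138 against 47.2 to 57.7 FPKM) and endothelial genes (87.7 to 90.3 against 58.3 to 59.8 FPKM) were lower in 7 of 7 cases each. Erythroid genes summed to 3327 to 3669 against 1816 to 1880 FPKM, with 8 of 9 tested lower. Cholangiocyte genes, at 39.6 to 43.1 against 18.5 to 19.3 FPKM, had 2 of 4 tested lower, and lymphocyte genes, at 16.6 to 18.2 against 10.2 to 10.9 FPKM, had 3 of 6 tested higher and 2 lower. Hepatocyte genes such as *Alb* were abundant in every library, at 72751 to 76109 FPKM in WT and 36966 to 37259 FPKM in β-cateninΔ(ex3)/+ livers (1 of 7 higher, 5 lower). Pericentral genes, several of them known targets of β-catenin, summed to 1734 to 1945 against 3095 to 3133 FPKM (8 of 9 higher, 1 lower). Periportal genes summed to 1115 to 1137 against 1581 to 1633 FPKM (5 of 8 higher, 2 lower) and cell cycle genes to 34.4 to 36.6 against 48.7 to 50.7 FPKM (8 of 10 higher). The part of these markers in the results was not tested. In whole-liver RNA, fewer cells of a type and less RNA per cell cannot be told apart.

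The enzymes of cholesterol synthesis were higher in β-cateninΔ(ex3)/+ than in WT livers almost without exception. Of the 19 enzymes, 18 were past both thresholds of the study's methods, an adjusted p under 0.05 and a fold change of at least 2, and higher, from *Sc5d* at 2.12-fold to *Nsdhl* at 11.6-fold by the ratio of mean FPKM. The other enzyme, *Ggps1*, was lower. Summed, the 19 enzymes stood at 263, 255 and 250 FPKM in WT livers 1 to 3 and at 1168, 1141 and 1091 FPKM in β-cateninΔ(ex3)/+ livers 1 to 3, which is 0.0575% ± 0.00152 and 0.242% ± 0.0104 of all FPKM (SD, n = 3). The mean sum in FPKM was 4.42-fold higher, with 4.96-fold for the mevalonate part and 4.04-fold for the sterol part. As shares of all FPKM, the same ratios were 4.21, 4.71 and 3.84.

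Tests were made with limma on log2(FPKM + 1) over 13243 genes, with Benjamini-Hochberg adjustment over all of them; because of the added 1, such fold changes come out too small where FPKM are low. Of all genes tested, 8.17% were past both thresholds and higher and 4.52% past both and lower; of the 31 members tested, 20 were higher and 1 was lower. At an adjusted p under 0.05 and any fold change, 37.4% of all genes were higher and 19.6% lower, against 24 and 6 of the 31 members. The groups did not overlap for 66.0% of all genes tested and for all 31 members tested, 24 of them higher and 7 lower, so that non-overlap by itself says little here. The median log2 fold change was 2.28 over the 19 enzymes, 0.07 over the 12 other members tested and 0.14 over all genes tested. For a single gene, 3 livers against 3 cannot go below p = 0.1 in a two-sided exact permutation test, and all 31 members reached that value. After median-ratio scaling the share of higher genes among all genes past both thresholds was 54.2% and after quantile normalization 49.5%, against 64.4%; 19 and 18 members were then higher past both thresholds, and the enzymes' median was 2.12 and 2.03.

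**Figure D1:**
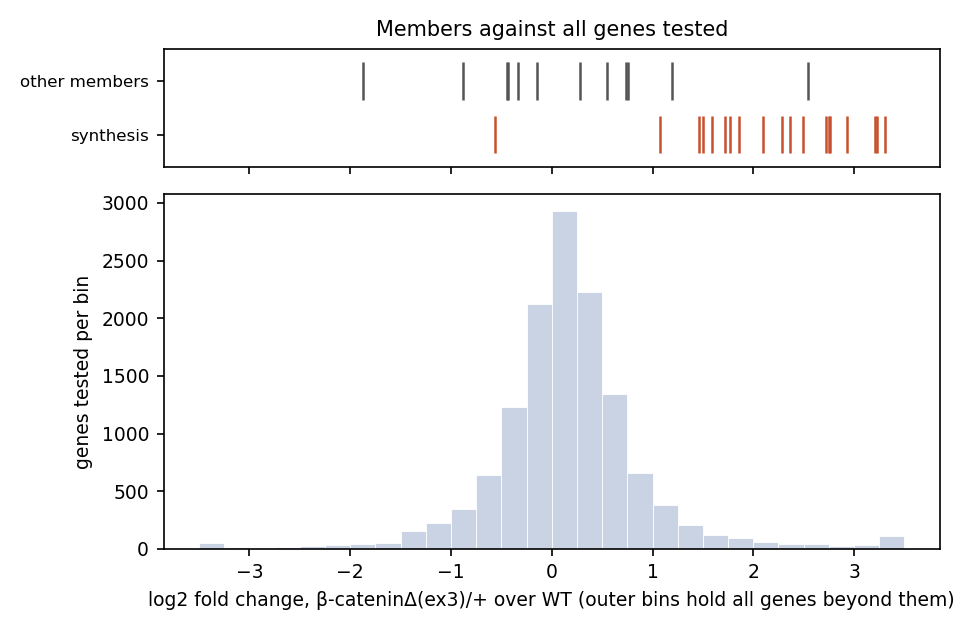
Upper panel: the log2 fold change (β-cateninΔ(ex3)/+ over WT, of log2(FPKM + 1)) of each of the 19 synthesis enzymes and the 12 other members tested, 1 stroke per gene. Lower panel: the number of all 13243 genes tested per bin of the same axis, with the outermost bins holding everything beyond them. All enzymes but *Ggps1* lie at 1.07 or above, in the right tail of all genes, while the other members lie on both sides of 0.

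The first steps make mevalonate and its isoprenoid products. *Acat2*, the cytosolic thiolase that joins a pair of acetyl-CoA, had 21.4, 11.9 and 22.5 FPKM in WT livers 1 to 3 and 56.1, 56.3 and 55.3 FPKM in β-cateninΔ(ex3)/+ livers 1 to 3. WT liver 2 was lower than the other WT livers, and all β-cateninΔ(ex3)/+ livers were above all WT livers (log2 fold change 1.59, SE 0.23, limma adjusted p = 0.00168). A near-identical neighbour, *Acat3*, shares 28.9% of the 100-base words of *Acat2* transcripts, so that fragments could be split between them; it had 55.2 to 57 FPKM in WT and 81.6 to 90.9 FPKM in β-cateninΔ(ex3)/+ livers.

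*Hmgcs1* (ENSMUSG00000093930, chromosome 13 from 119690379 to 119708260), which adds the third acetyl-CoA to form HMG-CoA, was the most abundant of the enzymes in either group. It had 47.9, 47.5 and 47.4 FPKM in WT and 177, 176 and 174 FPKM in β-cateninΔ(ex3)/+ livers. The livers of a group were nearly equal, and the level was 3.69-fold higher in β-cateninΔ(ex3)/+ livers (log2 fold change 1.86, SE 0.028, limma adjusted p = 1.14e-07).

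The kinases and the decarboxylase that follow were also higher. *Mvk*, which phosphorylates mevalonate, had 4.6, 4.84 and 4.72 FPKM in WT and 26.1, 27.0 and 27.1 FPKM in β-cateninΔ(ex3)/+ livers. *Pmvk*, the next kinase, had 11.8, 14.6 and 11.6 FPKM against 57.3, 60.0 and 54.5 FPKM, with WT liver 2 above the other WT livers. *Mvd*, which removes the carboxyl group to give isopentenyl diphosphate, had 5.46, 5.51 and 5.22 FPKM against 43.6, 39.0 and 41.1 FPKM. By the ratio of means these 3 genes were 5.66-fold, 4.52-fold and 7.64-fold higher, with limma adjusted p of 9.75e-06 or below.

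*Idi1* and *Fdps* had the largest fold changes of the mevalonate part. *Idi1* (ENSMUSG00000058258, chromosome 13 from 8885501 to 8892451), which interconverts the isoprenoid building blocks, had 10.3, 8.48 and 9.17 FPKM in WT and 100, 93.3 and 92.0 FPKM in β-cateninΔ(ex3)/+ livers. *Fdps* (ENSMUSG00000059743, chromosome 3 from 89093588 to 89101959), which joins them to farnesyl diphosphate, had 8.34, 7.73 and 7.72 FPKM in WT and 91.0, 75.8 and 78.3 FPKM in β-cateninΔ(ex3)/+ livers. They were 10.2-fold and 10.3-fold higher, with log2 fold changes of 3.23 (SE 0.074, limma adjusted p = 6.27e-07) and 3.21 (SE 0.078, limma adjusted p = 8.11e-07), at ranks 118 and 121 of the 13243 genes ordered by rise.

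*Ggps1* (ENSMUSG00000021302, chromosome 13 from 14050659 to 14063488) leads away from sterols: it makes geranylgeranyl diphosphate, which is attached to proteins. It had 1.59, 1.71 and 1.38 FPKM in WT and 0.605, 0.699 and 0.914 FPKM in β-cateninΔ(ex3)/+ livers, so that every β-cateninΔ(ex3)/+ liver was below every WT liver. The ratio of means was 2.11-fold lower, while the log2 fold change with a pseudocount of 1 was -0.56 (SE 0.092, limma adjusted p = 0.00286) and under the 2-fold threshold, as it was in every alternative setting. Exons of *Ggps1* overlap 257 bases of *Arid4b* on the opposite strand, and whether the counting used the strand is not given in the sources used here.

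**Figure D2:**
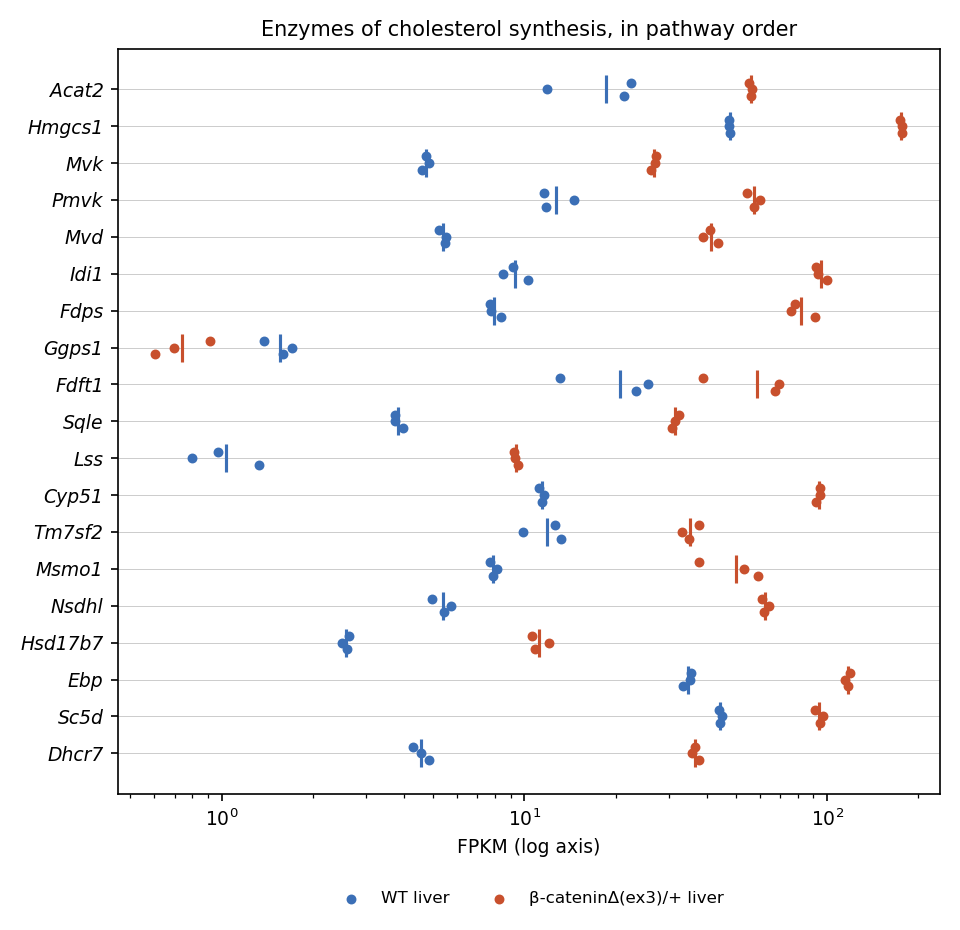
FPKM (log axis) of the 19 synthesis enzymes in pathway order from top to bottom, 1 point per liver, with a vertical stroke at each group's mean. The β-cateninΔ(ex3)/+ points lie to the right of the WT points for every enzyme except *Ggps1*, and *Acat2*, *Fdft1* and *Msmo1* show the widest spread among the abundant enzymes.

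The sterol part begins with squalene. *Fdft1*, squalene synthase, had 23.4, 25.6 and 13.1 FPKM in WT and 67.3, 69.1 and 38.8 FPKM in β-cateninΔ(ex3)/+ livers. The liver numbered 3 was the lowest of each group, yet the groups did not overlap (log2 fold change 1.46, SE 0.32, limma adjusted p = 0.00986), and the adjusted p stayed at 0.036 or below in every alternative setting. Exons of *Fdft1* overlap 774 bases of *Ctsb* on the opposite strand, which had 140 to 148 FPKM in WT and 157 to 163 FPKM in β-cateninΔ(ex3)/+ livers.

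*Sqle*, *Lss* and *Cyp51*, which oxidise squalene, close it to lanosterol and take a methyl group off lanosterol, were all more than 8-fold higher by the ratio of means. *Sqle* (ENSMUSG00000022351, chromosome 15 from 59315077 to 59331192) stood at 3.98, 3.75 and 3.75 FPKM in WT and 30.8, 31.3 and 32.3 FPKM in β-cateninΔ(ex3)/+ livers. *Lss* was the lowest of the enzymes that rose, with 1.33, 0.796 and 0.973 FPKM against 9.55, 9.29 and 9.21 FPKM. At such a level the pseudocount matters: its log2 fold change was 2.36 (SE 0.1, limma adjusted p = 9.15e-06) and reached 3.09 in the alternative settings. *Cyp51* (ENSMUSG00000001467, chromosome 5 from 4081145 to 4104746) had 11.4, 11.6 and 11.2 FPKM against 92.0, 94.4 and 94.6 FPKM, a log2 fold change of 2.93 (SE 0.035) with the lowest adjusted p of all members, 5.24e-08 by limma.

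The enzymes that trim the sterol ring come next. *Tm7sf2*, a sterol reductase, had 13.2, 9.92 and 12.6 FPKM in WT and 35.0, 33.2 and 37.6 FPKM in β-cateninΔ(ex3)/+ livers. *Msmo1*, which oxidises the methyl groups still on the ring, had 7.86, 8.11 and 7.69 FPKM against 59.1, 53.0 and 37.7 FPKM, so that its β-cateninΔ(ex3)/+ livers spread more (SD 11 FPKM, n = 3) than its WT livers (SD 0.215 FPKM, n = 3). Exons of *Tm7sf2* share 532 bases with *Vps51* on the same strand, which strand cannot separate; *Vps51* was at 2.23 to 4.09 FPKM in all 6 livers.

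*Nsdhl* (ENSMUSG00000031349, chromosome X from 72918557 to 72958514), the dehydrogenase that removes a carboxyl group from the ring, had the largest rise of all members. It had 5.44, 5.71 and 4.95 FPKM in WT and 61.6, 64.3 and 60.8 FPKM in β-cateninΔ(ex3)/+ livers (log2 fold change 3.31, SE 0.058, limma adjusted p = 2.05e-07), at rank 111 of the genes ordered by rise. *Hsd17b7*, the ketoreductase that follows it, had 2.60, 2.49 and 2.63 FPKM against 10.8, 12.1 and 10.6 FPKM. *Nsdhl* and *Ebp* lie on chromosome X, for which the groups also differ in *Xist*.

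Of the last steps, *Ebp* and *Sc5d* were abundant in both groups. *Ebp*, the sterol isomerase, had 33.5, 35.3 and 35.4 FPKM in WT and 117, 114 and 119 FPKM in β-cateninΔ(ex3)/+ livers. *Sc5d*, the desaturase after it, had 44.2, 44.9 and 44.0 FPKM against 94.7, 96.8 and 91.0 FPKM. The rise of *Sc5d* was the smallest of the 18, at a log2 fold change of 1.07 (SE 0.036, limma adjusted p = 3.2e-06), and fell under 2-fold after median-ratio scaling (0.90) and quantile normalization (0.80). *Dhcr7*, which yields cholesterol by a final reduction, had 4.84, 4.54 and 4.30 FPKM against 37.6, 35.8 and 36.7 FPKM, a log2 fold change of 2.76 (SE 0.052, limma adjusted p = 2.82e-07).

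Across the enzymes, the WT mean and the ratio of means had a Spearman rho of -0.42 over 19 genes, given as a description because the genes share the same 6 libraries. The WT mean is also the denominator of the ratio, which by itself favours a negative rho. No link between level and rise can be read from it. The median coefficient of variation among the 31 members tested was 5.13% in WT and 3.35% in β-cateninΔ(ex3)/+ livers. It was over 20% for *Acat2*, *Fdft1* and *Lss* in WT and for *Fdft1*, *Ggps1* and *Msmo1* in β-cateninΔ(ex3)/+ livers.

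Because most of the enzymes were higher together, the letters before the members' start sites were read from RefSeq promoters (GRCm38.p6). Of the 32 members, 25 had an entry, 16 of them enzymes. Both strands of the 250 bases before each start were searched, and a gene with several starts counted once if any of them held the motif. The CCAAT box, bound by NF-Y, which works beside SREBP2, was present as CCAAT or ATTGG in 23 of the 25 members (92%) and in 15 of the 16 enzymes (93.8%), against 40.4% of 9334 tested genes and 37.5% of 27025 genes with an entry. The members without it were *Acat2*, which was higher, and *Scap*, which was lower. Those with it included *Ggps1*, which was lower, and *Npc1l1*, which was not tested. The GC box GGGCGG, or its reverse complement, was present in 80% of the members and 87.5% of the enzymes, against 61.9% of tested genes and 35.4% of all genes.

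A strict sterol regulatory element core, TCACNCCAC, was present in *Hmgcs1* alone among the members, at bases -137 to -129 from the start, against 1.32% of tested genes. Its shorter form CACNCCAC, which lies inside it, was present in *Acat2*, *Hmgcs1* and *Insig1* (12%), against 6.49% of tested genes. The TCF/LEF core CTTTGAT, the letters through which β-catenin's DNA-binding partners act, was present in 0 of the 16 enzymes and in *Npc2* among the other members, against 2.81% of tested genes. These motifs were chosen with the members' values known, a match is not a site of binding, and a window without one says only that these letters are not there.

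The promoters of 4 enzymes that rose are shown from 5′ to 3′ on the strand of the gene, with the CCAAT box and, in *Hmgcs1*, the sterol regulatory element core in capitals. They are *Hmgcs1*, the abundant enzyme with the strict core (chr13:119690101-119690350, plus strand), *Mvd* with a box in each orientation near the start (chr8:122443423-122443672, minus strand), the part outside annotated exons for *Nsdhl*, the member with the largest rise (chrX:72918412-72918520, plus strand), and *Ebp* (chrX:8193513-8193762, minus strand).
Hmgcs1: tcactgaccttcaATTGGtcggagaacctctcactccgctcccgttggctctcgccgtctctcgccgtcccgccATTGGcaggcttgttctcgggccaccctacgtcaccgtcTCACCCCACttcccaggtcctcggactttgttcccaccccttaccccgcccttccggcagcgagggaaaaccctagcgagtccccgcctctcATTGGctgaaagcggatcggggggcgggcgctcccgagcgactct
Mvd: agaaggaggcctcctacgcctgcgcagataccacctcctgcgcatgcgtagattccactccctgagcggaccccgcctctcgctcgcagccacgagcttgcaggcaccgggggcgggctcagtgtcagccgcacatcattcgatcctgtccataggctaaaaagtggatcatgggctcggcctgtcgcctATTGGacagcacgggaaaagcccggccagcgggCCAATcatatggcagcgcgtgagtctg
Nsdhl: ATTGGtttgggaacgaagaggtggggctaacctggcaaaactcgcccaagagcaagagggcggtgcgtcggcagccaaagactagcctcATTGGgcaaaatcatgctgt
Ebp: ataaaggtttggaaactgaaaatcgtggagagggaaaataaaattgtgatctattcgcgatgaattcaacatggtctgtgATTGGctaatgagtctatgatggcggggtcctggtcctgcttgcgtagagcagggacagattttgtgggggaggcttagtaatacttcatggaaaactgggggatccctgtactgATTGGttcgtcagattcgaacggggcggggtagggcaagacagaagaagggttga

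The 4 genes of SREBP2 control did not move alike. *Srebf2* (ENSMUSG00000022463, chromosome 15 from 82147181 to 82205379), which encodes SREBP2, had 5.93, 6.00 and 6.61 FPKM in WT and 15.2, 15.4 and 15.4 FPKM in β-cateninΔ(ex3)/+ livers. It was 2.48-fold higher (log2 fold change 1.19, SE 0.052, limma adjusted p = 1.02e-05), and 0.92 on the log2 scale after quantile normalization. *Scap*, which encodes its escort, had 17.3, 15.8 and 17.3 FPKM against 13.9, 13.3 and 12.3 FPKM. The fall of *Scap* was small, 1.28-fold (log2 fold change -0.33, SE 0.061, limma adjusted p = 0.00496). Its groups did not overlap, which held for 66.0% of all genes tested. Exons of *Scap* overlap 985 bases of a transcript on the opposite strand that was at most 0.342 FPKM.

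*Insig1* (ENSMUSG00000045294, chromosome 5 from 28071363 to 28078662), itself a known target of SREBP2, had 12.5, 12.7 and 12.4 FPKM in WT and 79.0, 78.5 and 75.5 FPKM in β-cateninΔ(ex3)/+ livers. It was 6.21-fold higher (log2 fold change 2.54, SE 0.036, limma adjusted p = 9.91e-08), the largest rise outside the enzymes. *Insig2*, its paralogue, had 36.7, 40.9 and 38.1 FPKM against 61.6, 68.2 and 65.1 FPKM, a 1.68-fold rise (log2 fold change 0.74, SE 0.058, limma adjusted p = 0.000116). The order of the paralogues was reversed between the groups: *Insig1* was at 0.325 ± 0.0145 of the *Insig2* level (SD, n = 3) in WT and at 1.2 ± 0.0733 (SD, n = 3) in β-cateninΔ(ex3)/+ livers. The *Insig1* promoter is shown for its part outside annotated exons (chr5:28071162-28071362, plus strand), with its CCAAT box in capitals.
Insig1: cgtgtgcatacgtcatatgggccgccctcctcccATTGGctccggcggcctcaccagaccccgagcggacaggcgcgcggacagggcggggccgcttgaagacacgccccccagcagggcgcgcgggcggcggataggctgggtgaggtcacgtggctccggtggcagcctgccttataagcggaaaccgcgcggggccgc

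**Figure D3:**
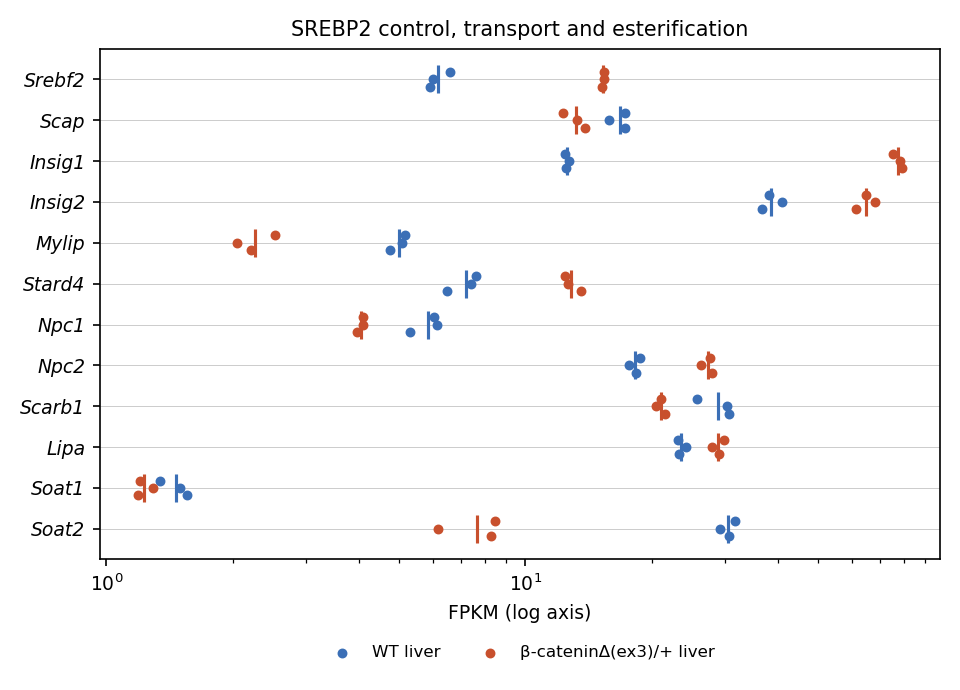
FPKM (log axis) of the 12 members of SREBP2 control, transport and esterification that were tested, 1 point per liver, with a vertical stroke at each group's mean. *Insig1*, *Srebf2* and *Soat2* show the widest gaps between WT and β-cateninΔ(ex3)/+ livers, the last with WT higher, while the groups of *Soat1* and *Lipa* are close together.

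None of the genes of uptake and transport passed both thresholds, against 8.17% of all genes tested that were higher and 4.52% lower. By adjusted p alone, 3 of the 6 tested were higher and 3 lower, against 37.4% and 19.6% of all genes tested. Their median log2 fold change was -0.08. *Mylip* (also called Idol) encodes a ubiquitin ligase that sends lipoprotein receptors to degradation and is a known target of the sterol-sensing liver X receptors. It had 4.76, 5.07 and 5.16 FPKM in WT and 2.21, 2.05 and 2.53 FPKM in β-cateninΔ(ex3)/+ livers, a ratio of means 2.21-fold lower. Its log2 fold change was -0.88 (SE 0.072, limma adjusted p = 0.000141), and it passed the fold threshold at a pseudocount of 0.1 (-1.11) and under median-ratio scaling (-1.01) or quantile normalization (-1.05). The *Mylip* promoter (chr13:45389492-45389741, plus strand) is shown beside those of the genes that rose. It holds 3 CCAAT boxes, in capitals, as many as *Hmgcs1*. *Mylip* was lower and *Hmgcs1* higher, and the part of the box in either was not tested.
Mylip: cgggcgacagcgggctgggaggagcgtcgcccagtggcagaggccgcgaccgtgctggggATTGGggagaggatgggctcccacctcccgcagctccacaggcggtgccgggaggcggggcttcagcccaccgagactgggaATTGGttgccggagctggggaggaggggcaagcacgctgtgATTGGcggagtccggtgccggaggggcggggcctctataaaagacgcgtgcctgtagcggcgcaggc

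*Scarb1*, the HDL receptor through which hepatocytes take up cholesteryl esters, had 30.6, 30.3 and 25.7 FPKM in WT and 21.5, 20.5 and 21.1 FPKM in β-cateninΔ(ex3)/+ livers (log2 fold change -0.44, SE 0.075, limma adjusted p = 0.00352). *Npc1* and *Npc2* work in turn to carry cholesterol out of the lysosome, and they moved in opposite directions. *Npc1* fell from 5.84 ± 0.463 to 4.06 ± 0.0722 FPKM (SD, n = 3; log2 fold change -0.43, limma adjusted p = 0.00192), and *Npc2* rose from 18.3 ± 0.567 to 27.3 ± 0.879 FPKM (SD, n = 3; log2 fold change 0.55, limma adjusted p = 0.000132). Exons of *Npc1* overlap 511 bases of *Rmc1* on the opposite strand, which had 1.99 to 2.45 FPKM in all livers.

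*Stard4*, a cytosolic sterol carrier, rose from 7.19 ± 0.601 to 12.9 ± 0.653 FPKM (SD, n = 3; log2 fold change 0.76, limma adjusted p = 0.000256). *Lipa*, the lysosomal lipase that frees cholesterol from its esters, had 23.3, 24.2 and 23.1 FPKM in WT and 29.0, 27.8 and 29.7 FPKM in β-cateninΔ(ex3)/+ livers. Its log2 fold change of 0.28 (limma adjusted p = 0.002) was 0.11 after median-ratio scaling (limma adjusted p = 0.0676) and -0.015 after quantile normalization (limma adjusted p = 0.81), so its call and its direction depend on the scaling. *Npc1l1*, a sterol uptake protein of the intestine, was at most 0.0171 FPKM in any liver and the groups overlapped; it was listed at 0 in 3 of the 6 livers.

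The esterifying enzymes differed between the paralogues. *Soat2* (ENSMUSG00000023045, chromosome 15 from 102150526 to 102163469), the form of hepatocytes and intestine, had 30.6, 29.1 and 31.7 FPKM in WT and 8.28, 6.19 and 8.46 FPKM in β-cateninΔ(ex3)/+ livers. It was 3.98-fold lower (log2 fold change -1.87, SE 0.11, limma adjusted p = 3.92e-05), the only member lower past both thresholds, at rank 173 of the genes ordered by fall. *Soat1*, the form of macrophages and most other cells, had 1.56, 1.5 and 1.34 FPKM against 1.19, 1.29 and 1.2 FPKM and was the only tested member with an adjusted p over 0.05 (log2 fold change -0.15, SE 0.063, limma adjusted p = 0.0917; over the alternatives 0.0195 to 0.233). The ratio of *Soat2* to *Soat1* was 20.9 ± 2.47 in WT and 6.27 ± 1.29 in β-cateninΔ(ex3)/+ livers (SD, n = 3). Kupffer cells are the macrophages of the liver, and their markers summed to 351 to 374 FPKM in WT and 818 to 830 FPKM in β-cateninΔ(ex3)/+ livers; their part was not tested.

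**Figure D4:**
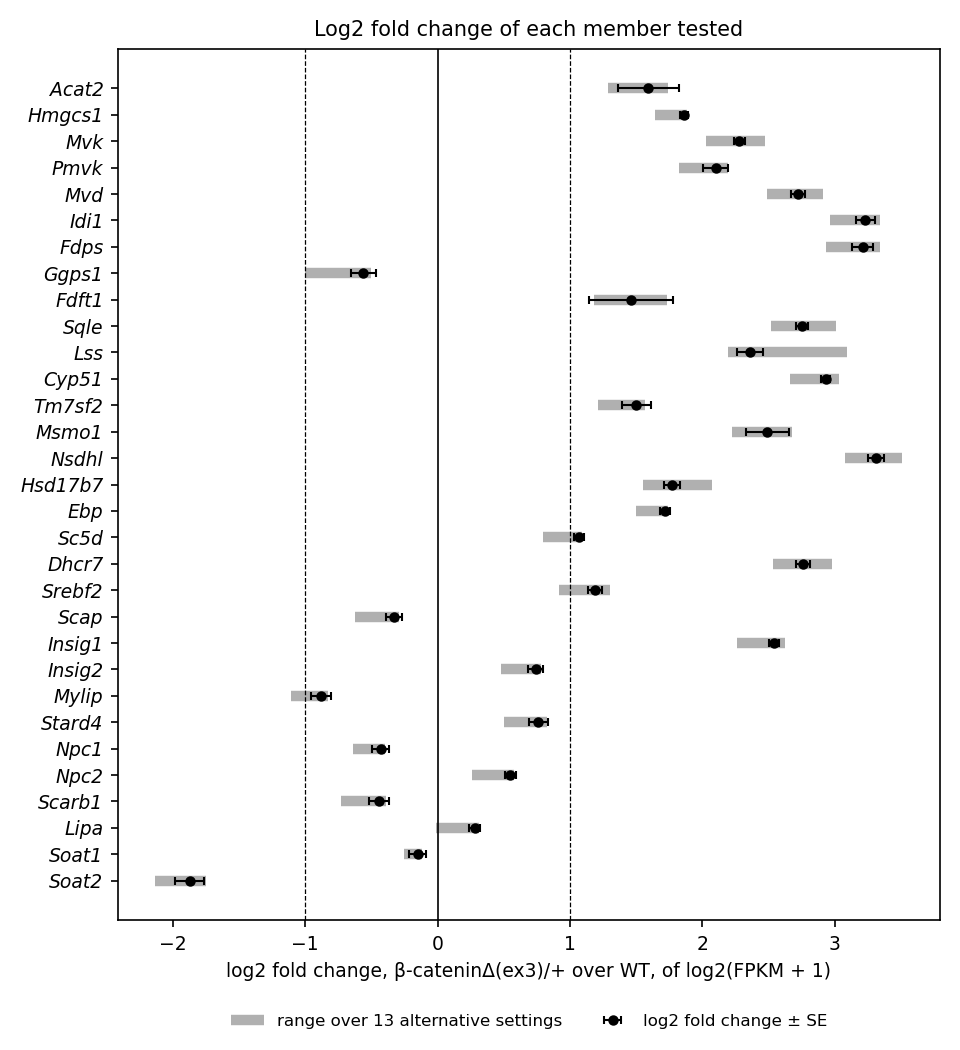
Log2 fold change (β-cateninΔ(ex3)/+ over WT, of log2(FPKM + 1)) of the 31 members tested, with its standard error as a bar and the range over the 13 alternative settings in grey; dashed lines mark 2-fold. Of the enzymes, 17 stay beyond 2-fold in every setting, the ranges of *Sc5d*, *Srebf2* and *Mylip* cross the line, and that of *Lipa* reaches below 0 after quantile normalization.

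Genes next to these in the pathway were taken from 3 lists, to be read against the 37.4% of all genes tested that were higher and the 19.6% that were lower by adjusted p. Past both thresholds, 8.17% of all genes tested were higher and 4.52% lower. Of 12 genes that process or degrade parts of the SREBP system, 6 were higher and 3 lower by adjusted p and 0 passed both thresholds, with a median log2 fold change of 0.24. Of 12 genes that use isoprenoids for prenylation, ubiquinone or dolichol, 6 were higher and 0 lower by adjusted p, with a median of 0.25. Past both thresholds was 1 of these 12, a share near the 8.17% of all genes tested that were higher. This gene, *Dhdds* of dolichol synthesis, stood at 3.69 ± 1.14 FPKM in WT and 8.57 ± 1.93 FPKM in β-cateninΔ(ex3)/+ livers (SD, n = 3, log2 fold change 1.04, SE 0.23, limma adjusted p = 0.01).

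Of 15 tested genes of efflux and sterol transport, 9 were higher and 5 lower by adjusted p, with a median of 0.31, against 37.4% and 19.6% of all genes tested. Past both thresholds 2 were higher and 3 lower, against 8.17% and 4.52% of all genes tested. *Abcg5* and *Abcg8*, which together form the transporter that secretes cholesterol into bile, both fell. *Abcg5* had 43.4, 42.6 and 45 FPKM in WT and 14.5, 13.3 and 14.2 FPKM in β-cateninΔ(ex3)/+ livers (log2 fold change -1.57, SE 0.048, limma adjusted p = 2.04e-06). *Abcg8* had 16.8, 18 and 17.9 FPKM against 6.02, 5.58 and 6.01 FPKM (log2 fold change -1.43, SE 0.053, limma adjusted p = 4.62e-06). *Nceh1*, a cholesteryl ester hydrolase, fell from 5.99 ± 0.149 to 2.5 ± 0.454 FPKM (SD, n = 3; log2 fold change -1.01).

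Those that rose past both thresholds were *Nr1h3*, which encodes liver X receptor alpha, and *Gramd1c*, of a family that moves cholesterol from the plasma membrane to the endoplasmic reticulum. *Nr1h3* rose from 17.6 ± 0.52 to 40.1 ± 3.39 FPKM (SD, n = 3; log2 fold change 1.14, limma adjusted p = 3.31e-05). *Gramd1c* rose from 3.51 ± 0.279 to 9.17 ± 0.523 FPKM (SD, n = 3; log2 fold change 1.18, limma adjusted p = 3.32e-05).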

How the data were processed

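Liver RNA of 3 WT and 3 β-cateninΔ(ex3)/+ mice was compared, grouped by the genotype in the sample labels. The authors deposited 1 table, with an FPKM value for each of 31950 genes in each liver. The submitters' processing notes name cutadapt 1.9, HISAT2 2.0.4, StringTie 1.3.4d, DESeq2 and edgeR without their roles; the genome build, the annotation and the strand setting of the counting are not given in the sources used here. Starts and ends of 28911 genes equal those of GENCODE M21 (GRCm38), which held 31856 of the identifiers and was used for exon overlaps. All 6 value columns were matched to a liver, and 0 were left unused. By the study's methods the authors called genes with DESeq2 on counts. FPKM are not counts, so that count tests were not run and no counting intervals are given.

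The 13243 genes that averaged 0.5 FPKM or more were put on the log2(FPKM + 1) scale and tested in R 4.3.3 by limma 3.58.1, using lmFit and then eBayes with its trend on intensity, with Benjamini-Hochberg adjustment over all genes tested. Calls needed an adjusted p under 0.05 and a fold change of at least 2. Python 3.11.15, pandas 2.3.3, numpy 2.4.6 and matplotlib 3.10.9 did the rest. On simulated data of 13231 genes, 200 of them changed, the fit recovered 98% of those changed 4-fold and called 0.0921% of the unchanged genes. The simulation gave every library the same depth and every gene the same dispersion, and it changed few genes. Its rates therefore need not hold for these livers. Depth was estimated from steps between low values of 8644 single-exon genes; 23.8% to 33.2% of the values lay on steps (tolerance 0.02), against 4% expected, so that depths are estimates and values near 0 are the least precise. The alternatives were other scalings (median-ratio, quantile), a pseudocount of 0.1, a filter at a mean of 1 FPKM or none, a replicate block, eBayes with its trend off, each fit with 1 liver dropped, and a fold threshold of 1.5 on the log2 scale.

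The members, the pathway and marker lists and the motifs were chosen with earlier results of these data known. All 32 members are named, with per-liver FPKM for those past both thresholds and for the genes of SREBP2 control and esterification; of the 3 further pathway lists only genes past both thresholds are named. Promoters are RefSeq's for GRCm38.p6; 7 members had no entry. ChIP-seq is not analysed here.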

Additional observations from a re-analysis of the deposited data

How the results depend on the processing

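Of 403 comparisons of single members over 13 alternatives, 396 kept their direction and whether they passed both thresholds together, 3 became weaker, 3 stronger and 1 reversed. *Sc5d* was under 2-fold after median-ratio scaling (0.90) and quantile normalization (0.80), and *Srebf2* after quantile normalization (0.92). *Mylip* passed both thresholds at a pseudocount of 0.1 (-1.11) and under median-ratio scaling (-1.01) or quantile normalization (-1.05), so that 2 members were then lower past both thresholds, against 1. *Lipa* reversed to -0.015 after quantile normalization (limma adjusted p = 0.81) and lost its adjusted p after median-ratio scaling (0.11, limma adjusted p = 0.0676). *Soat1* had a limma adjusted p under 0.05 after both scalings (0.0201 and 0.0195). The median log2 fold change of the 19 synthesis enzymes was 2.47 at a pseudocount of 0.1 and 2.03 after quantile normalization, against 2.28; the other alternatives gave 2.12 to 2.29. The median of all genes tested was 0.14. Median-ratio scaling moved it by -0.12, to 0.02, and quantile normalization by -0.16, to -0.02. Both scalings set the libraries to a common level, so that such a shift follows from the step itself. Without a filter the median moved by -0.13, but over a larger set of genes that adds those of low value. The cause of the other changes was not tested. When 1 liver at a time was dropped, the median of the enzymes ranged from 2.26 to 2.29, and 20 members were higher and 1 lower past both thresholds, as in the fit with all livers. At an absolute log2 fold change of 1.5, 16 members were higher and 1 lower.

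With the replicate number as a block, 20 members were higher and 1 lower past both thresholds, 24 higher and 6 lower by adjusted p, and 1075 of all genes higher and 598 lower; the block changed no call of a member. A number is shared by different animals, and the correlations of their deviations from the group means were 0.027, 0.021 and -0.005, so that nothing but the number pairs them. The depth is known only as an estimate. It limits *Npc1l1*, which was at most 0.0171 FPKM in any liver. *Lss*, *Ggps1* and *Soat1* were also low in WT livers, and what depth adds to their spread was not tested.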
